A study of Mus musculus with 4 samples.

Results

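Genes of cytosolic lipid droplets, 9 in all, were examined in hearts of GSK-3α S21A knock-in mice and wild-type mice: the lipases Pnpla2, Lipe and Mgll, the lipase regulators Abhd5 and G0s2, and the droplet coat genes Plin2, Plin3, Plin4 and Plin5. They were found by their symbol in the array's annotation, and all 9 were measured, by 17 of the 45037 probe sets tested and among 18193 genes that had a probe set with 1 symbol. Both groups were C57B6 mice aged 3.6 months, untreated, with 2 single-colour Affymetrix arrays each. In the knock-in group serine 21 of the kinase GSK-3α was replaced by alanine, and the wild-type group carried no stated allele. No label gives zygosity or sex. Whether the arrays come from separate animals is not stated either, so n counts arrays, and p-values measure the spread between these arrays, which may be technical. Whole heart was profiled, so fewer cells of a type and less RNA per cell cannot be told apart.

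Heart muscle keeps fatty acids as triglyceride in small droplets beside mitochondria and releases them again by lipolysis. The lipase ATGL, encoded by Pnpla2, cuts the first fatty acid from triglyceride, hormone-sensitive lipase (Lipe) acts on the diglyceride, and monoglyceride lipase (Mgll) releases the last one. ABHD5, also called CGI-58, switches ATGL on, the small protein encoded by G0s2 inhibits it, and the perilipins (Plin genes) coat the droplet and govern the access of these enzymes. Serine 21 is the site at which Akt and related kinases restrain GSK-3α. The comparison concerns cardiac transcripts in mice that carry the S21A substitution, and the restraint itself was not measured. Gsk3a itself had log2 values of 10.62 and 10.80 on the knock-in arrays and 11.16 and 11.08 on the wild-type arrays.

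Values are log2 RMA signals of single probe sets, which do not rank genes by transcript number. Differences are knock-in minus wild-type, folds are taken from the RMA values, and each gene is represented by its brightest probe set unless stated. Of the 17 probe sets 0 passed limma's test at an adjusted p of 0.05, with adjusted p between 0.458 and 0.988. Over the whole table the test called 0.00666% of probe sets, all of them higher in knock-in hearts and none a lipid droplet gene. At an unadjusted p under 0.05 there were 3 higher and 1 lower among the 17, against a background of 5.07% higher and 5.62% lower of all probe sets. The knock-in and wild-type arrays did not overlap for 5 of the 9 genes, 3 higher and 2 lower. That was so for 46.5% of all genes, 22.5% higher and 24.1% lower.

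By mean value 4 of the 9 genes were higher in knock-in hearts, against 46.9% of all genes. The lipase activator Abhd5, the lipase inhibitor G0s2 and the coat gene Plin3 had higher means in knock-in hearts, with log2 differences of 0.23, 0.37 and 0.32. The 3 lipase genes had lower means, with −0.16 for Pnpla2, −0.34 for Lipe and −0.26 for Mgll. Plin2, Plin4 and Plin5 lay within 0.09 of no difference. The median over the 9 genes was −0.04 (0.02 without knock-in replicate 1), against −0.01 over all genes, while the median size regardless of sign was 0.23, against 0.13 over all genes. Background differed with brightness: the median was −0.04 over all probe sets but 0.06 over those with a mean of at least 7, as all 9 genes have. Under quantile normalisation G0s2, Plin3 and Abhd5 differed by 0.29, 0.26 and 0.15. Pnpla2, Lipe and Mgll then differed by −0.22, −0.44 and −0.32, and the median of the 9 was −0.11.

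**Figure D1:**
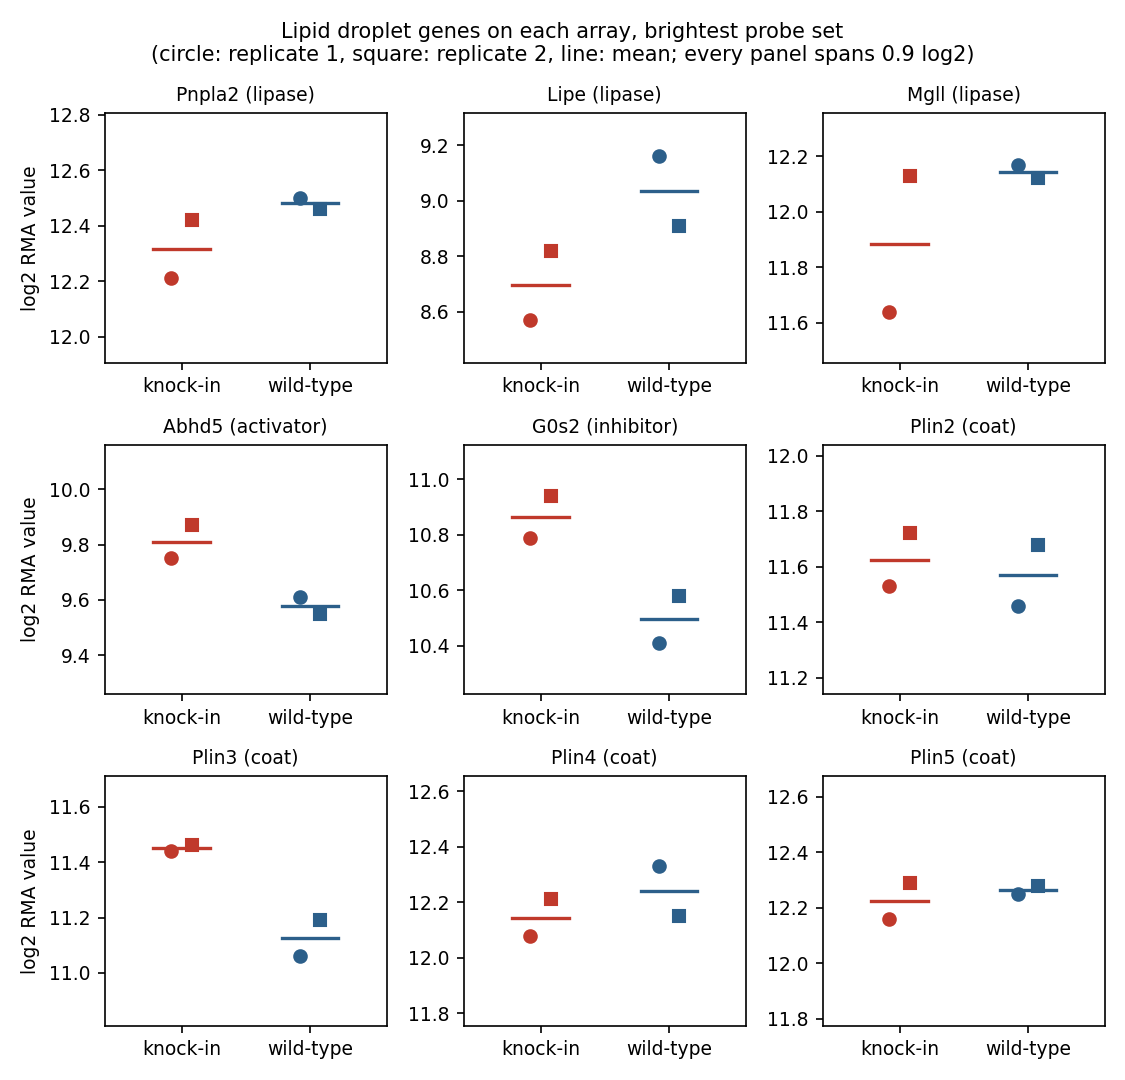
Log2 RMA values of the 9 genes by their brightest probe set, knock-in arrays on the left of each panel and wild-type arrays on the right, with the mean as a line and every panel spanning 0.9 log2 units. Both knock-in points lie above both wild-type points for Abhd5, G0s2 and Plin3 and below them for Pnpla2 and Lipe, and knock-in replicate 1 (10.79 for G0s2, 11.64 for Mgll) is shown as a circle.

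Promoter sequences are shown for Abhd5, G0s2 and Plin3, whose knock-in arrays all lay above the wild-type arrays, and for Lipe, which had the most negative difference (1 of its 2 windows). Each runs from 250 bases before to 50 bases after an annotated start, 5′ to 3′ on the gene's strand, from RefSeq on GRCm38.p6. Capitals mark any match, on either strand, to AGGTCA (the half-site of PPARs and related nuclear receptors), TGTTTAC (a forkhead core that FoxO factors bind), CACGTG (an E-box) or TATAAA (a core promoter box).
Abhd5 (chr9:122351366-122351665, plus strand): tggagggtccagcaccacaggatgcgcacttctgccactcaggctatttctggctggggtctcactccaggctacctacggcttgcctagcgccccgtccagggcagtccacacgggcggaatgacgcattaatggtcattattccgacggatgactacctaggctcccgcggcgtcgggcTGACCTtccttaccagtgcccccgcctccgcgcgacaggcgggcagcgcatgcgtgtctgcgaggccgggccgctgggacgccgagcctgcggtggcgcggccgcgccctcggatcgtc
G0s2 (chr1:193273139-193273438, minus strand): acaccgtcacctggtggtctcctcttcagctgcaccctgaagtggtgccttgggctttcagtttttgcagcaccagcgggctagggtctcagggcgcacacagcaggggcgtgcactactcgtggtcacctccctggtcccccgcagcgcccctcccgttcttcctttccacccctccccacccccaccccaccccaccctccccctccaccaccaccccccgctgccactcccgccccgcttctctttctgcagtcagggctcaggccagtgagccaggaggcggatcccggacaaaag
Plin3 (chr17:56290462-56290761, minus strand): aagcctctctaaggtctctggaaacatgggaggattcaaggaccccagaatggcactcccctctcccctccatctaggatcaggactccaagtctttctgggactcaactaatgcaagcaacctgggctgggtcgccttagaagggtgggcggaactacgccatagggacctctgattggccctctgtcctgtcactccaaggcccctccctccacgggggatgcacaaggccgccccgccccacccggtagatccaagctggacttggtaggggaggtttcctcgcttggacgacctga
Lipe (chr7:25390063-25390362, minus strand): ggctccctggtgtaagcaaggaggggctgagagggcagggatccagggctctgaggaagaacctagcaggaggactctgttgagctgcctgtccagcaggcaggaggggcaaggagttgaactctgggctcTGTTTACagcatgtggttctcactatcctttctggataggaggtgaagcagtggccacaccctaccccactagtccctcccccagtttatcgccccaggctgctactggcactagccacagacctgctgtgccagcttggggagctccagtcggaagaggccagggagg
The Abhd5 window holds an AGGTCA half-site, read on the opposite strand as TGACCT, that begins 69 bases before the start, and this Lipe window holds TGTTTAC beginning 119 bases before it. None of the 4 letter patterns occurs in the G0s2 or Plin3 windows. All 9 genes had a promoter in the table, with 12 windows in all, since Lipe, Mgll and Plin5 have 2 starts each. AGGTCA occurred in 4 of the 12 (Abhd5, Plin2 and both Plin5 windows, which overlap), against 16.3% of 32851 mouse promoter windows. TGTTTAC occurred in 2 (Lipe and Mgll, background 3.65%), CACGTG in 3 (Lipe, Mgll and Plin2, background 7.15%) and TATAAA in 0 (background 13.6%). A match is a description of the letters, not a bound site.

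Pnpla2, which encodes the lipase that starts triglyceride breakdown, had log2 values of 12.21 and 12.42 in knock-in hearts, against 12.50 and 12.46 in wild-type hearts. The knock-in arrays both lay below the wild-type arrays, replicate 2 by only a small margin. This gave a log2 difference of −0.16 (standard error 0.12, 95% interval −0.45 to 0.12, limma adjusted p = 0.587), a fold of 0.893. A second Pnpla2 probe set, with signals below the median of every array, gave −0.26 (−0.55 to 0.03) and also did not overlap. The 95% interval of the fold ran from 0.734 to 1.09 by the brighter probe set and from 0.681 to 1.02 by the second. Without knock-in replicate 1 the difference was −0.06.

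Lipe, the gene of hormone-sensitive lipase, had 8.57 and 8.82 on the knock-in arrays and 9.16 and 8.91 on the wild-type arrays. The groups did not overlap, and the nearest pair of arrays, both replicate 2, lay close together. Its log2 difference of −0.34 (standard error 0.14) was the most negative of the 9, with a fold of 0.789 and a 95% interval of the fold from 0.622 to 0.999 (limma unadjusted p = 0.0493, adjusted p = 0.467). It was −0.22 without knock-in replicate 1, −0.22 without wild-type replicate 1, and −0.47 when replicate 2 of the knock-in, or that of the wild type, was left out. The second Lipe probe set lay below the median of every array and gave 0.07 (−0.28 to 0.42), so the direction rests on 1 probe set.

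Mgll, which encodes the lipase of the last step, had 11.64 and 12.13 in knock-in hearts, against 12.17 and 12.12 in wild-type hearts. Knock-in replicate 1 alone was low, and replicate 2 lay between the wild-type arrays. The log2 difference was −0.26 (95% interval −0.67 to 0.15, limma adjusted p = 0.562), and without knock-in replicate 1 it was −0.02. The second probe set showed the same array apart, with 9.88 and 10.35 in knock-in hearts against 10.47 and 10.25 in wild-type hearts. The third did not, with 9.98 and 10.05 against 10.08 and 9.96 and a difference of −0.01 (−0.27 to 0.26). The fourth lay below the median of every array and differed by −0.21. Mgll therefore has 2 probe sets that single out 1 knock-in array and another bright one that does not.

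Abhd5 encodes the activator of ATGL. Its brightest probe set had 9.75 and 9.87 in knock-in hearts, against 9.61 and 9.55 in wild-type hearts, and the groups did not overlap. The log2 difference was 0.23 (standard error 0.11, 95% interval −0.04 to 0.49, limma adjusted p = 0.483), a fold of 1.17. A second bright probe set had 9.21 and 9.14 against 8.64 and 8.86, again without overlap. There the difference was 0.43 (0.14 to 0.72, fold 1.35, unadjusted p = 0.0102, adjusted p = 0.458), which was the largest in size among the 17 probe sets. The third probe set, with 4.45 and 4.31 against 4.77 and 4.46, lay below the median of every array and went the other way at −0.23 (−0.57 to 0.10). With 1 array left out the brightest probe set gave 0.17 to 0.29, and the mean of the 3 probe sets gave 0.14.

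G0s2, whose small protein inhibits ATGL, had log2 values of 10.79 and 10.94 in knock-in hearts and 10.41 and 10.58 in wild-type hearts. Both knock-in arrays lay above both wild-type arrays. The difference came to 0.37 on the log2 scale (standard error 0.12, 95% interval 0.08 to 0.66, limma unadjusted p = 0.0196, adjusted p = 0.458), a fold of 1.29. The 95% interval of the fold, not adjusted for the number of probe sets, ran from 1.06 to 1.58. Leaving out each array in turn gave 0.29 to 0.46. Only 1 probe set measures the gene.

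G0s2 and Pnpla2 encode an inhibitor and its target, so their log2 ratio was followed within each array, a measure chosen after the values had been seen and given with no test. Relative to the wild-type mean of that ratio, G0s2 over Pnpla2 stood at 0.56 and 0.51 in the knock-in arrays, against −0.10 and 0.10 in the wild-type arrays. For the activator, Abhd5 over Pnpla2 stood at 0.43 and 0.35, against 0.02 and −0.02. The ratio of inhibitor to activator, G0s2 over Abhd5, stood at 0.13 and 0.16 against −0.12 and 0.12. Both regulators were thus higher relative to the lipase on each knock-in array.

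Among the coats, Plin3, which encodes the broadly expressed perilipin TIP47 that moves between cytosol and droplets, stood apart from the other 3. It had 11.44 and 11.46 in knock-in hearts, against 11.06 and 11.19 in wild-type hearts. The knock-in arrays were nearly equal and both lay above the wild-type arrays. The difference came to 0.32 on the log2 scale (standard error 0.11, 95% interval 0.06 to 0.59, limma unadjusted p = 0.0236, adjusted p = 0.458), a fold of 1.25. The 95% interval of the fold, not adjusted for the number of probe sets, ran from 1.04 to 1.5. Leaving out each array in turn gave 0.25 to 0.39. Whether Plin3 differed more than the other coats was not tested.

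Plin2, the perilipin whose level commonly follows the amount of stored lipid, had 11.53 and 11.72 in knock-in hearts and 11.46 and 11.68 in wild-type hearts. The replicates within each genotype were farther apart than the genotypes. The log2 difference was 0.06 (95% interval −0.26 to 0.37, limma adjusted p = 0.879), with a 95% interval of the fold from 0.837 to 1.29. Its sign turned under quantile normalisation (−0.004), under cyclic loess (−0.01), without wild-type replicate 1 (−0.05) and without knock-in replicate 2 (−0.04).

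Plin5 encodes the perilipin of oxidative tissues, which tethers droplets to mitochondria and holds ATGL and ABHD5 at the droplet. Its brighter probe set had 12.16 and 12.29 in knock-in hearts, against 12.25 and 12.28 in wild-type hearts, and the groups overlapped. The difference was −0.04 (95% interval −0.30 to 0.22, limma adjusted p = 0.903), with a 95% interval of the fold from 0.812 to 1.17. The sign of the difference turned with arrays shifted to 1 median (0.02) and without knock-in replicate 1 (0.02). The second probe set gave −0.12 (−0.42 to 0.17).

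Plin4, a coat gene of adipocytes and striated muscle, had 12.08 and 12.21 in knock-in hearts and 12.33 and 12.15 in wild-type hearts. The groups overlapped, with a difference of −0.09 (95% interval −0.38 to 0.19, limma adjusted p = 0.761) and a 95% interval of the fold from 0.768 to 1.14. The difference was −0.01 without wild-type replicate 1 and −0.03 without knock-in replicate 1, but −0.18 without wild-type replicate 2 and −0.16 without knock-in replicate 2. A change beyond these bounds in Plin2, Plin4 or Plin5 falls outside the 95% intervals, which are not adjusted for the number of probe sets. With 2 arrays per genotype the bounds are not a limit of detection: G0s2, at a difference of 0.37, did not pass the test.

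**Figure D2:**
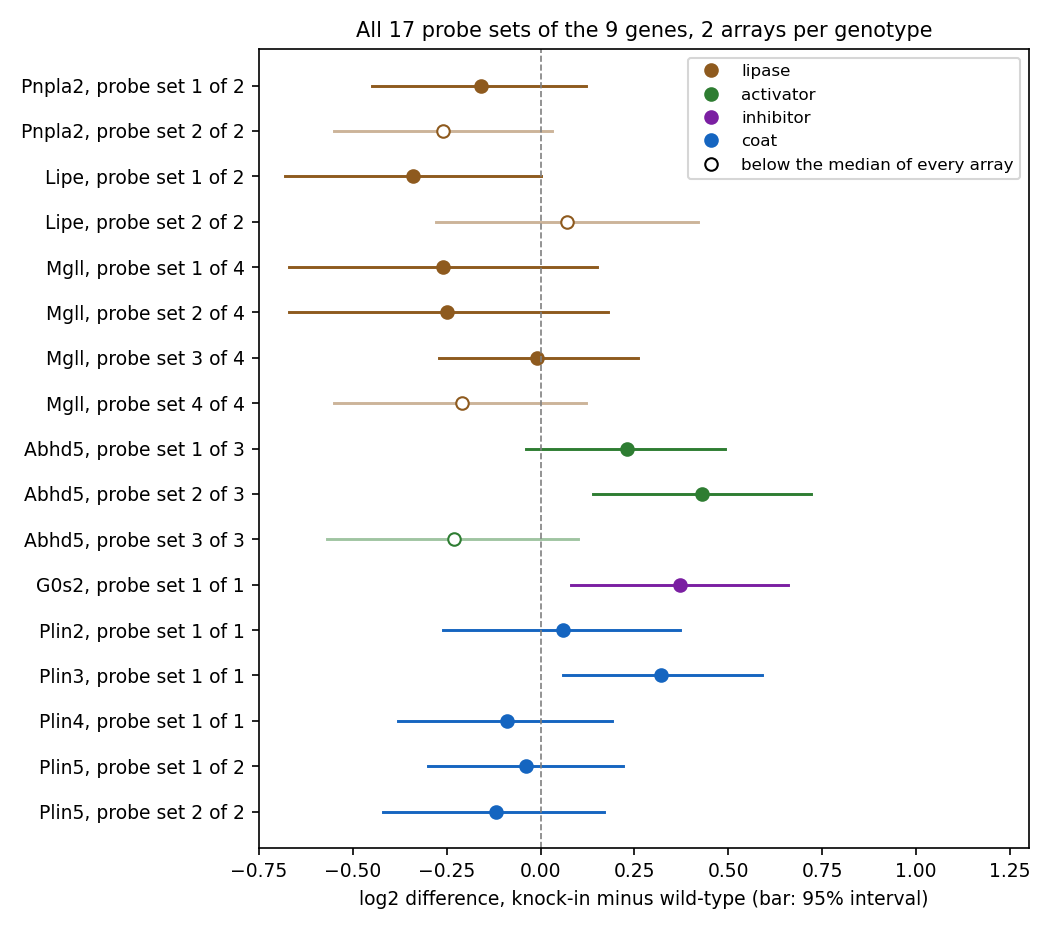
Log2 difference, knock-in minus wild-type, of all 17 probe sets with its 95% interval (bars), numbered by brightness within each gene, 2 arrays per genotype. Open points lie below the median of every array. The intervals of G0s2 (0.08 to 0.66), Plin3 (0.06 to 0.59) and the second Abhd5 probe set (0.14 to 0.72) lie above 0, that of the brighter Lipe probe set ends just below it, and all others cross it.

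The arrays contributed unequally. Knock-in replicate 1 was the lowest of the 4 arrays for 5 of the 9 genes (Pnpla2, Lipe, Mgll, Plin4 and Plin5), against 26.4% of all genes, and knock-in replicate 2 was the highest for 5 (Abhd5, G0s2, Plin2, Plin3 and Plin5), against 31.7%. Wild-type replicate 1 was the highest for 4 (Pnpla2, Lipe, Mgll and Plin4), against 37.9% of all genes, and the lowest for 3 (G0s2, Plin2 and Plin3), against 25.6%. Over all probe sets the log2 differences between wild-type replicate 1 and either knock-in array had an SD of 0.31, against 0.24 between the 2 wild-type arrays, 0.23 between knock-in replicate 2 and wild-type replicate 2 and 0.21 between the knock-in arrays. Relative to its wild-type mean, Mgll stood at −0.50 in knock-in replicate 1 and −0.02 in replicate 2, Lipe at −0.47 and −0.22, and Pnpla2 at −0.26 and −0.06. Plin3 stood at 0.31 and 0.33, G0s2 at 0.29 and 0.45 and Abhd5 at 0.17 and 0.29. Abhd5, G0s2 and Plin3 were thus above the wild-type mean on both knock-in arrays, whereas the lower means of Pnpla2 and Mgll came mostly from replicate 1.

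**Figure D3:**
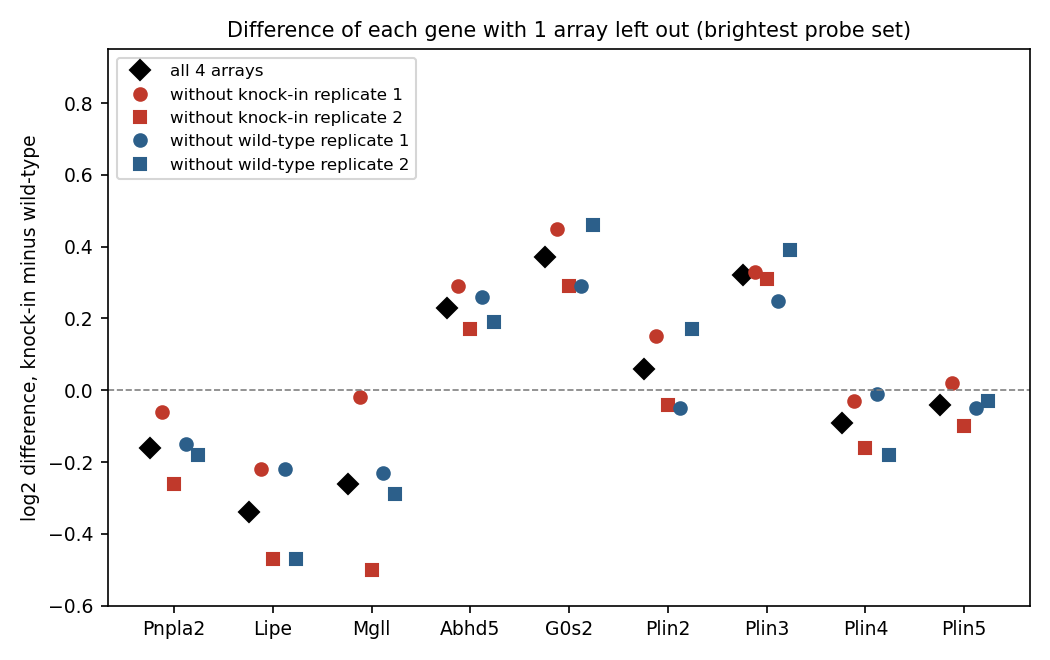
Log2 difference, knock-in minus wild-type, of each gene by its brightest probe set with all 4 arrays (diamonds) and with 1 array left out (other symbols). Abhd5, G0s2 and Plin3 stay above 0 throughout and Lipe stays below it, as must be where groups do not overlap. Mgll lies at −0.02 and Pnpla2 at −0.06 without knock-in replicate 1.

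Markers of other tissues were set beside these differences. Liver markers, genes best known for their expression in liver, were higher on the knock-in arrays, unequally: the median of 14 measured of 16 listed was 8.72 on the first and 7.06 on the second of them, against 6.17 and 5.66 on the wild-type pair. All 14 had a higher mean, with a median difference of 1.95, 13 at an unadjusted p under 0.05 and 0 past the adjusted threshold. Their summed linear signal was 7418 and 2859 on the knock-in arrays and 1237 and 835 on the wild-type arrays. Of the defining markers Alb had 10.81 and 9.66 against 7.33 and 5.72, Fga 9.11 and 6.75 against 4.88 and 4.46, and Apoa1 9.51 and 8.07 against 6.37 and 5.65. The knock-in array with the higher liver signal is replicate 1, the one that is lowest for the 3 lipases by their brightest probe sets, though not by all their probe sets. Without replicate 1 the liver median was still 1.10, and G0s2, Plin3 and Abhd5 differed by 0.45, 0.33 and 0.29. Pnpla2, Lipe and Mgll then differed by −0.06, −0.22 and −0.02. The part of liver transcripts in the differences of the 9 genes was not tested.

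Adipocytes also make most of these proteins. Of 10 adipocyte markers 7 were measured, 5 with a higher and 2 with a lower mean, 0 past the test and 0 at an unadjusted p under 0.05, with a median difference of 0.06 and a summed linear signal of 1390 and 1469 in knock-in hearts, against 1347 and 1361 in wild-type hearts. With replicate 2 of the knock-in left out the median difference of these markers turned to −0.14, with replicate 2 of the wild type left out it was −0.07, and with replicate 1 of the wild type left out 0.16. The defining markers Lep (−0.19) and Cidec (0.04) lay below the median on all 4 arrays, and Plin1, also a defining marker, was not among the genes measured. Adipoq, the adiponectin gene, was above it only in knock-in replicate 2, at 6.89, against 5.13 in knock-in replicate 1 and 5.23 and 5.30 in wild-type hearts. Retn, Pck1 and Ucp1, which encode resistin, an enzyme of glyceroneogenesis and the uncoupling protein of brown fat, differed by −0.19, 0.18 and 0.30. Pck1 and Ucp1 also lay below the median on all 4 arrays, and the other Pck1 probe sets gave 0.76 and −0.14. The part of adipocyte RNA in the values of knock-in replicate 2 was not tested, and without that array G0s2, Plin3 and Abhd5 differed by 0.29, 0.31 and 0.17.

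The defining cardiomyocyte markers were high on every array, with differences of 0.10 for Myh6, 0.07 for Tnnt2 and 0.03 for Tnni3. The other probe sets gave 0.45 for Myh6 and 0.16 and −0.60 for Tnnt2. All 10 listed markers were measured, 7 with a higher and 3 with a lower mean and a median of 0.05. Mybpc3, Mb and Actc1, the other genes of smallest p there, differed by 0.16, 0.07 and 0.05. Summed linear signals were 232242 and 221636 in knock-in hearts, against 216064 and 220920 in wild-type hearts. Macrophages, which also store lipid, had all 6 markers higher with a median of 0.12, 0 past the test and 1 at an unadjusted p under 0.05, Mrc1 at 0.38, the colony stimulating factor receptor gene Csf1r at 0.20, Adgre1 at 0.13, Cd68 at 0.11 and Cd163 at 0.10. Their summed signals were 8954 and 8413, against 7666 and 8233, and whether they move with Plin3 was not tested.

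The remaining droplet genes gave a similarly mixed picture. Of 24 other lipid droplet proteins 23 were measured, 15 with a higher and 8 with a lower mean. The median was 0.04, against −0.01 over all genes, and it turned to −0.04 under quantile normalisation, −0.02 under cyclic loess and −0.05 without knock-in replicate 2. None passed the test. At an unadjusted p under 0.05 there were 1 higher and 1 lower of these genes, while the background of 5.07% and 5.62% counts all probe sets, not genes. Cideb, a member of the family that enlarges droplets and lipoproteins, differed by 0.26 (95% interval 0.00 to 0.52). Hsd17b13, a droplet enzyme known from liver, differed by −0.28, but it lay below the median on all 4 arrays and its other probe set gave 0.08. Vps13c, at −0.27, also lay below the median on all 4. Fitm2, needed in the endoplasmic reticulum for droplets to bud, differed by −0.22 (−0.48 to 0.04) and the dehydrogenase gene Hsd17b11 by −0.22 (−0.53 to 0.09).

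Of 17 other intracellular lipases and hydrolases, all measured, 12 had a higher and 5 a lower mean, with a median of 0.06, 0 past the test and 0 at an unadjusted p under 0.05. Ddhd2, a triglyceride hydrolase best known from brain, differed by 0.26 (95% interval −0.01 to 0.54). Its other probe sets were dim, with mean signals of 5.22, 4.32 and 3.61 below the array medians, and gave −0.46, −0.05 and 0.04. The carboxylesterase gene Ces1d differed by −0.23, the phospholipase gene Pnpla8 by 0.22 (−0.10 in its other probe set) and the monoglyceride hydrolase gene Abhd6 by 0.22. Pnpla3, a close relative of Pnpla2, differed by −0.22 and lay below the median on 2 of the 4 arrays.

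The signals that set lipolysis, from G proteins and adenylyl cyclases through protein kinase A to transcription factors, had 22 of 26 genes measured, 9 with a higher and 13 with a lower mean, a median of −0.02 (0.03 without knock-in replicate 1) and 0 past the test. At an unadjusted p under 0.05 there were 1 higher and 1 lower of these genes, against 5.07% higher and 5.62% lower of all probe sets, a share not counted by gene. The higher one was Foxo1, whose product activates Pnpla2 transcription and is itself restrained by Akt, with 9.18 and 9.28 in knock-in hearts, against 8.82 and 8.78 in wild-type hearts. Its log2 difference was 0.43 (95% interval 0.17 to 0.69, limma adjusted p = 0.458), while its other probe sets gave 0.11, 0.32 and −0.11. Pnpla2 differed by −0.16, and its relation to Foxo1 was not tested. The lower one was Pde3b, the phosphodiesterase by which insulin dampens lipolysis, with 7.87 and 7.83 against 8.12 and 8.14 and a difference of −0.28 (−0.53 to −0.03, adjusted p = 0.458). The cardiac adenylyl cyclase gene Adcy5 differed by −0.29, with −0.22, −0.10 and −0.28 in its other probe sets. Aqp7, the glycerol channel, differed by −0.23, but its other probe set, of nearly equal brightness, gave 0.55. The coactivator gene Ppargc1a differed by −0.21, while its other probe sets gave 0.01, −0.01, −0.11 and 0.12.

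**Figure D4:**
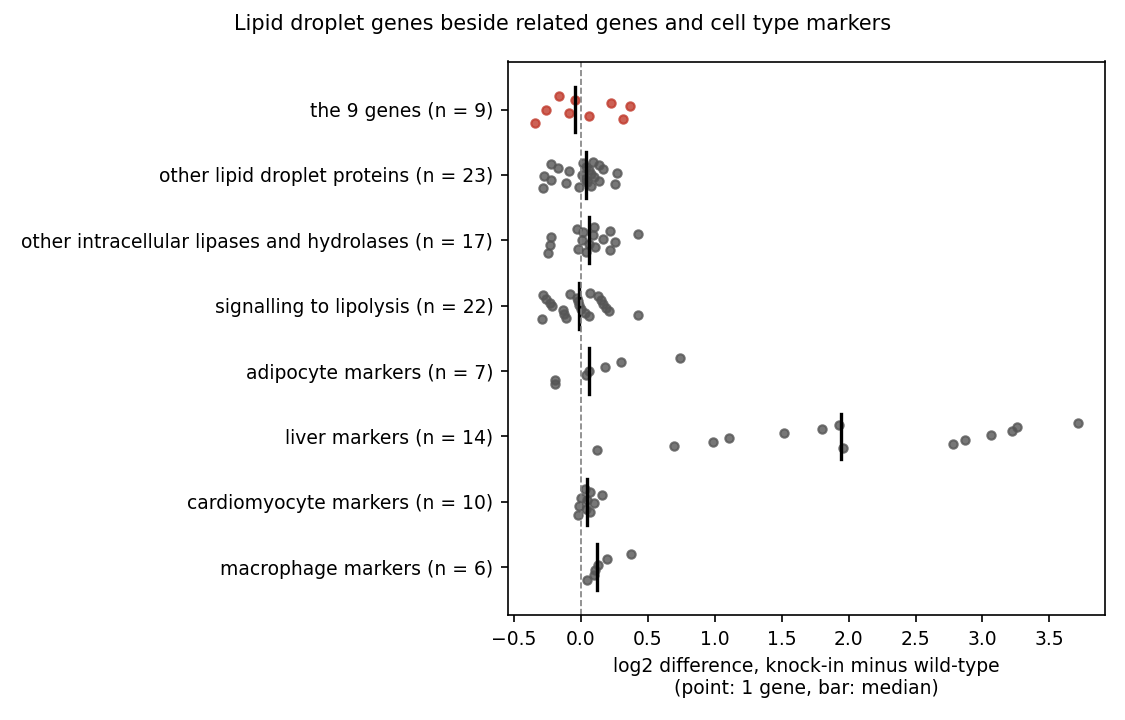
Log2 difference, knock-in minus wild-type, of the 9 lipid droplet genes (top row) and of 3 lists of related genes and 4 of cell type markers, 1 point per gene by its brightest probe set, with the median as a bar. The 9 genes lie between −0.34 and 0.37 around a median of −0.04, and the liver markers stand apart at a median of 1.95.

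Lipe and Pnpla2 share chromosome 7 with the targeted gene. On GRCm38.p6, Gsk3a lies at chr7:25228258-25237851 and Lipe at chr7:25379527-25398486, 141.7 kb apart with 10 annotated genes starting between them. The 4 of these that were measured differed by −0.03 (Erf), −0.18 (Cic), 0.16 (Pafah1b3) and −0.22 (Cnfn), all with overlapping arrays, while Gsk3a itself differed by −0.42 (95% interval −0.70 to −0.14, limma adjusted p = 0.458). By the brightest probe set 2 of the 6 measured genes of this stretch, Gsk3a and Lipe, did not overlap between genotypes, against 46.5% of all genes, and the second Lipe probe set overlapped. Whether the targeted allele bears on Lipe was not tested. Pnpla2 lies 116.2 Mb away at chr7:141455188-141460743. Of 1089 measured genes between it and Gsk3a, those of smallest p were Gm38983 (2.05), Blvrb (1.27), Cpxm2 (1.0), Lgals4 (−1.26) and Zfp30 (1.59), of which none passed the test.

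Plin4, Plin5 and Plin3 lie together on chromosome 17, at chr17:56100587-56109948, chr17:56111597-56117606 and chr17:56278962-56290511. Plin3 is separated from Plin4 by 169.0 kb that hold Plin5 and 9 other annotated genes. Plin3 had the higher mean in knock-in hearts (0.32), and Plin4 and Plin5 did not (−0.09 and −0.04). Of the 9 other genes 8 were measured. In order from Plin4 they differed by −0.13 (Lrg1), −0.07 (Sema6b), 0.19 (Tnfaip8l1), −0.02 (Mydgf), −0.09 (Dpp9), −0.15 (A230051N06Rik), 0.2 (Fem1a) and 0.03 (Ticam1). Fem1a, close to Plin3, had 11.37 and 11.27 in knock-in hearts against 11.17 and 11.06, while its dimmer probe sets gave −0.04 and −0.17. For Lrg1 and A230051N06Rik both knock-in arrays lay below both wild-type arrays, and for the others, with Ticam1 nearer to Plin3 than Fem1a, the arrays overlapped. Arrays did not overlap for 46.5% of all genes. The other members lie on chromosomes 1 (G0s2), 4 (Plin2), 6 (Mgll) and 9 (Abhd5).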

How the data were processed

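The deposited values are log2 signals, 1 per probe set and array, which the authors computed by RMA (Affymetrix Expression Console, according to the submitters' processing notes, version not given in the sources used here). RMA corrects background, gives the arrays a common distribution and summarises probes, which hides any shift that most genes share. The wild-type scans were processed together with these knock-in scans only, per the labels. Of 45101 probe sets, 64 controls were left out. Symbols came from the array's annotation table, and probe sets with several symbols (932) or none listed (9160) named no gene. Positions were matched by gene ID to RefSeq on GRCm38.p6. Neighbouring genes were matched to the array by symbol, and listed genes by symbol or synonym. A neighbour with another symbol on the array therefore counts as not measured.

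Knock-in minus wild-type was fitted on all 45037 probe sets with limma 3.58.1 in R 4.3.3 (lmFit, eBayes, 2 residual and 4.54 prior degrees of freedom, Benjamini-Hochberg over all probe sets, threshold 0.05). The fit was also run on data simulated from its own model. Differences planted there exceeded those of the 9 genes, so that run cannot speak for differences of their size. Array number limits precision: the median standard error was 0.121, and array medians were 6.16 and 6.14 in knock-in and 6.23 and 6.19 in wild-type arrays. Named genes are the 9 members, Gsk3a, defining markers, the 5 of smallest p per list and measured genes between Gsk3a and members on its chromosome. The members and lists were chosen with earlier results of these data known. The lists are described by counts, with no set test. Alternatives covered scaling, the prior, array weights, probe sets that are dim or may cross-hybridise, replicate block, each array left out, threshold and the mean of a gene's probe sets. Python 3.11.15, pandas 2.3.3, numpy 2.4.6 and matplotlib 3.10.9 made tables and plots.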

Additional observations from a re-analysis of the deposited data

How the results depend on the processing

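With 2 arrays per genotype, no lipid droplet probe set passed the test (0) under any of the 15 alternatives that test probe sets, nor did any of the 9 genes (0) by the mean of a gene's probe sets, with adjusted p of the 9 genes down to 0.209. Pnpla2, Lipe, Mgll and Plin4 stayed lower and Abhd5, G0s2 and Plin3 higher under all 16. The settings of prior, array weights, replicate block, threshold and lowest mean signal left every difference as it was, so they could not turn a sign. Leaving out 1 array could not turn it for Pnpla2, Lipe, Abhd5, G0s2 or Plin3 either, whose groups did not overlap. The sign turned for Plin2 under quantile normalisation (−0.004) and cyclic loess (−0.01), with −0.05 to 0.17 with 1 array left out, and for Plin5 with arrays shifted to 1 median (0.02), with −0.10 to 0.02 with 1 array left out. Of all probe sets tested 3 were called, against 11 with arrays shifted to 1 median, 1 where the mean signal had to reach 7, 5 at an adjusted p of 0.1, and 0 to 2 with 1 array left out (0 without knock-in replicate 1). All probe sets called at an adjusted p of 0.05 were higher in knock-in hearts. By the mean of a gene's probe sets 6 genes were called higher and 1 lower of 18193. The median of the other lipid droplet proteins was 0.10 with shifted arrays, −0.04 and −0.02 under quantile normalisation and cyclic loess, and −0.05 to 0.06 with 1 array left out. The liver median was 1.10 to 3.03 with 1 array left out, highest without knock-in replicate 2. The cause of these changes was not tested. A fit without 1 array assumes that the lone array of its group varies like the other group.

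The labels number the arrays 1 and 2 in both genotypes but do not say what the numbers share, and deviations of same-numbered arrays correlated at 0.08 across probe sets. With the replicate block 4 probe sets of the whole table and 0 of the lipid droplet genes were called, and the differences were as without it (G0s2 0.37, limma adjusted p = 0.447).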
